A study of Mus musculus with 10 samples.

Results

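Histone cluster genes are the protein-coding genes whose GENCODE M21 symbol starts with Hist1h, Hist2h, Hist3h or Hist4h. There were 67 of them among the 55494 genes with a transcript in the deposited files. They comprised 6 genes of the linker histone H1 and 61 of the core histones, with 18 for H2A, 18 for H2B, 12 for H3 and 13 for H4. The Hist1 locus on chromosome 13 held 54 of them, the Hist2 locus on chromosome 3 held 10, the Hist3 locus on chromosome 11 held 2, and the Hist4 locus on chromosome 6 held 1. Another 3 genes with the same symbol pattern are not annotated as protein-coding and were left out.

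The 10 libraries are bulk RNA sequencing of leukemia initiating cells (LICs), the transformed B cell precursors of Eu-RET mice, sorted from the spleen. All animals carried the RFP/RET transgene, which by its name is placed under the Eμ immunoglobulin enhancer, and their age is given as 13 days, which may be the age at treatment or at harvest. The 5 pups of the control group received 50 µl of PBS and the 5 pups of the treated group received 20 µg of Poly(A:U), a man-made duplex RNA sensed by Toll-like receptors, and cells were taken 7 days later. There was no untreated group and no group without the transgene. The surface markers of the sort are not stated here, and whether poly(A)-tailed RNA was selected or ribosomal RNA removed was not given in the sources used here. P-values refer to the spread between these libraries, each from a separate pup by the series' design text.

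DNA of a cell is wrapped around octamers of the core histones H2A, H2B, H3 and H4, and the linker histone H1 binds where the DNA enters and leaves. The clustered histone genes are transcribed mainly in S phase, when new chromatin is made. Their mRNAs are as a rule intronless and end in a short stem-loop instead of a poly(A) tail; the stem-loop binding protein Slbp holds this loop, and the U7 small nuclear ribonucleoprotein guides the cut behind it. Some clustered genes also give longer, polyadenylated mRNAs, mainly in cells that have stopped dividing or are differentiating. Library preparations that select poly(A) tails therefore capture only part of the histone mRNA.

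The 3′ stem-loop is the sequence that sets these mRNAs apart, so it is shown first. A 16-base stem-loop (a stem of 6 base pairs starting with GG and a loop of 4 bases, within 100 bases after the stop codon) was found in 46 of the 52 members with annotated bases after the stop codon long enough to hold it, and in 71 of 20914 other protein-coding genes (0.34%). It was read from GENCODE M21 transcripts of mm10; capitals mark the stem-loop, and each line runs 5′ to 3′ on the transcribed strand.
Hist1h1e (loop at chr13:23621782-23621797, minus strand): cccaaaGGCTCTTTTCAGAGCCacccac
Hist2h2aa1 (loop at chr3:96246032-96246047, plus strand): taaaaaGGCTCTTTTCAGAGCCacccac
Hist1h2bg (loop at chr13:23571843-23571858, plus strand): cccaaaGGCTCTTTTCAGAGCCacccat
Hist1h3e (loop at chr13:23561903-23561918, minus strand): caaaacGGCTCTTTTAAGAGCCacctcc
Hist1h4n (loop at chr13:21831798-21831813, minus strand): actaaaGGCCCTTTTCAGGGCCatccaa
The form shown for Hist1h1e, Hist2h2aa1 and Hist1h2bg was shared by 26 members of the H1, H2A, H2B and H3 classes. The form shown for Hist1h4n was found in 7 members, all of the H4 class, and the form of Hist1h3e in 6. The remaining 7 loops belonged to 5 rarer forms.

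A transcript can also be annotated past the stem-loop to a poly(A) signal. In the H1 gene Hist1h1c and in Hist3h2a, which both hold the loop, and in Hist2h2be, in which none was found, the annotated transcript ended downstream of a poly(A) signal (AATAAA, in capitals in the last bases of each transcript below).
Hist1h1c: ctAATAAAaagcgtttagttttcattca
Hist3h2a: gcccAATAAAataagagtacgtgtataa
Hist2h2be: attattAATAAAgttaccgattagtttc
Hist3h2a had 1643 annotated bases after its stem-loop and Hist1h1c had 840. AATAAA or ATTAAA within 50 bases of an annotated transcript end was present in 17 of the 67 members.

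The promoters also differed by class. RefSeq promoter sequences (GRCm38.p6, from 250 bases before to 50 after the annotated start) were matched to 62 members. The CCAAT box (CCAAT or its reverse complement ATTGG) occurred in all 6 H1, all 18 H2A, all 16 H2B and all 10 H3 promoters, in 3 of 12 H4 promoters, and in 37.4% of the 32851 promoters of the table. TATAAA (or TTTATA) occurred in 35 of 62, against 13.6% of all promoters. The octamer ATTTGCAT (or ATGCAAAT) occurred in 7 of 18 H2A and 6 of 16 H2B promoters, in none of the H1, H3 and H4 promoters, and in 1.74% of all. The motifs do not contain one another, and these are matches of letters only. Where an H2A and an H2B gene lie back to back, their promoter windows overlap. A single match, such as the octamer of Hist1h2ae and Hist1h2bg, is then counted in both classes. The counts by class and over the 62 members are therefore not counts of separate stretches of DNA. An H1, an H2B, an H4 and an H2A promoter are shown as examples, with the matches in capitals.
Hist1h1e (chr13:23622509-23622808, minus strand): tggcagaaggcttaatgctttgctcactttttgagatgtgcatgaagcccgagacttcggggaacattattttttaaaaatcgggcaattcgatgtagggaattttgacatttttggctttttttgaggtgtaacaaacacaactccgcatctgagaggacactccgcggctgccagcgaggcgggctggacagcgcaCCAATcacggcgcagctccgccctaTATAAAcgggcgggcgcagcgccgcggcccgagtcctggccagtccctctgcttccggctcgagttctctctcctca
Hist1h2bl (chr13:21716134-21716433, minus strand): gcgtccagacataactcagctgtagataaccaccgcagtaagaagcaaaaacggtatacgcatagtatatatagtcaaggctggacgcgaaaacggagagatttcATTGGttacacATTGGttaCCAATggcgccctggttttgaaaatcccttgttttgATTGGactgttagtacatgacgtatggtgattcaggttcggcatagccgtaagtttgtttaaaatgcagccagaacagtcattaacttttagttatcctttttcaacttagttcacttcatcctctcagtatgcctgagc
Hist1h4n (chr13:21832148-21832447, minus strand): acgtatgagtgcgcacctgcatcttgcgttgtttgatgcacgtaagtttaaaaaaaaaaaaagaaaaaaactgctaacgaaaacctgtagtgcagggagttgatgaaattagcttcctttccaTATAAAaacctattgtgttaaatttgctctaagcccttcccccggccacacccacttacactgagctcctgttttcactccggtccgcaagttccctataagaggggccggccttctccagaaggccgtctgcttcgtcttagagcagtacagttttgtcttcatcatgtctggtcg
Hist3h2a (chr11:58954435-58954734, plus strand): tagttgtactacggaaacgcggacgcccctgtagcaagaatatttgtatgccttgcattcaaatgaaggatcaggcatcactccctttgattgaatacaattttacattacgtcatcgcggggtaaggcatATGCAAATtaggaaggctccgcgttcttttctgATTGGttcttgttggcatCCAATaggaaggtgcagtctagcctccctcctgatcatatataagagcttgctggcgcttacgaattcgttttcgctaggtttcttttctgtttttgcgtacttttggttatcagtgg
Hist1h1e holds a CCAAT box followed by TATAAA, Hist1h2bl holds 4 CCAAT boxes, Hist1h4n holds TATAAA and no CCAAT box, and Hist3h2a holds an octamer and 2 CCAAT boxes. Hist1h2bl lies back to back with the H2A gene Hist1h2ai, with 278 bases between them, and 12 such divergent H2A and H2B pairs were found among the members.

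Between 17859006 and 22587871 estimated reads per library were assigned to genes. The 15 listed B cell precursor genes summed to between 12347 and 19459 CPM, that is reads per 1000000 reads of a library, over all libraries. Ighm and Cd79a were the highest of them by group mean, and Rag2 and Il7r were among the lowest. The listed markers of other cells varied widely between libraries, and each one found had reads in at least 1 library. Erythroid markers (14 found of 15) summed to 144 to 12017 CPM with PBS and 1410 to 12518 CPM with Poly(A:U), macrophage markers (14 of 14) to 55.0 to 221 and 46.4 to 69.5 CPM, and T cell markers (12 of 12) to 22.3 to 315 and 20.3 to 43.7 CPM; neutrophil markers are described beside the result they move with. No gene of these lists was called between treatments. The library PBS 2 stood apart from the other 9 in its histone reads, as described next, so the fold changes of the named members and the counts over members are given with and without it.

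All 67 members together took 0.0677% of the reads in PBS 2 and between 0.0215% and 0.0274% in the other 9 libraries. Linker histone reads, summed over the 6 H1 genes, were 72.1, 204, 54.9, 46.1 and 68.9 CPM in PBS 1 to 5 and 63.1, 68.0, 54.6, 61.6 and 54.2 CPM in Poly(A:U) 1 to 5. PBS 2 was 3.32 times the median of the other libraries. Outside PBS 2 the groups overlapped: the mean was 60.5 ± 12.1 CPM (SD, n = 4) with PBS and 60.3 ± 5.89 CPM (SD, n = 5) with Poly(A:U).

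The core classes showed the same outlier. H2A reads were 58.7, 120, 63.4, 56.5 and 57.0 CPM in PBS 1 to 5 and 53.9, 69.0, 57.3, 61.1 and 53.9 CPM in Poly(A:U) 1 to 5. H2B reads were 61.4, 140, 49.6, 63.2 and 54.1 CPM in PBS 1 to 5 and 50.5, 70.1, 60.5, 66.4 and 66.8 CPM in Poly(A:U) 1 to 5. In both classes PBS 2 was the highest library, at 2.10 and 2.28 times the median of the other 9, and the other libraries of both groups overlapped. Without PBS 2 the H2A mean was 58.9 ± 3.14 CPM (SD, n = 4) with PBS and 59.04 ± 6.33 CPM (SD, n = 5) with Poly(A:U), and the H2B mean was 57.1 ± 6.36 against 62.9 ± 7.71 CPM.

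H3 reads were 31.2, 131, 27.7, 42.6 and 33.5 CPM in PBS 1 to 5 and 35.9, 41.4, 41.3, 49.7 and 57.9 CPM in Poly(A:U) 1 to 5. H4 reads were 19.6, 81.0, 19.9, 25.6 and 15.4 CPM in PBS 1 to 5 and 17.6, 25.9, 29.1, 30.0 and 27.3 CPM in Poly(A:U) 1 to 5. PBS 2 was 3.18 times the median of the others for H3 and 3.17 times for H4. Without PBS 2, the H3 mean was 33.8 ± 6.38 CPM (SD, n = 4) with PBS and 45.2 ± 8.61 CPM (SD, n = 5) with Poly(A:U), and the H4 mean was 20.1 ± 4.17 against 25.96 ± 4.96 CPM. The groups still overlapped, since PBS 4 lay above Poly(A:U) 1 to 3 for H3, and PBS 1, PBS 3 and PBS 4 lay above Poly(A:U) 1 for H4. The linker share of histone reads was 27.0% ± 4.54 (SD, n = 5) with PBS, 26.2% ± 4.82 (SD, n = 4) with PBS 2 left out, and 23.9% ± 2.95 (SD, n = 5) with Poly(A:U), and in PBS 2, at 30.2%, it was near that of PBS 5 (30.1%) and PBS 1 (29.7%).

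**Figure D1:**
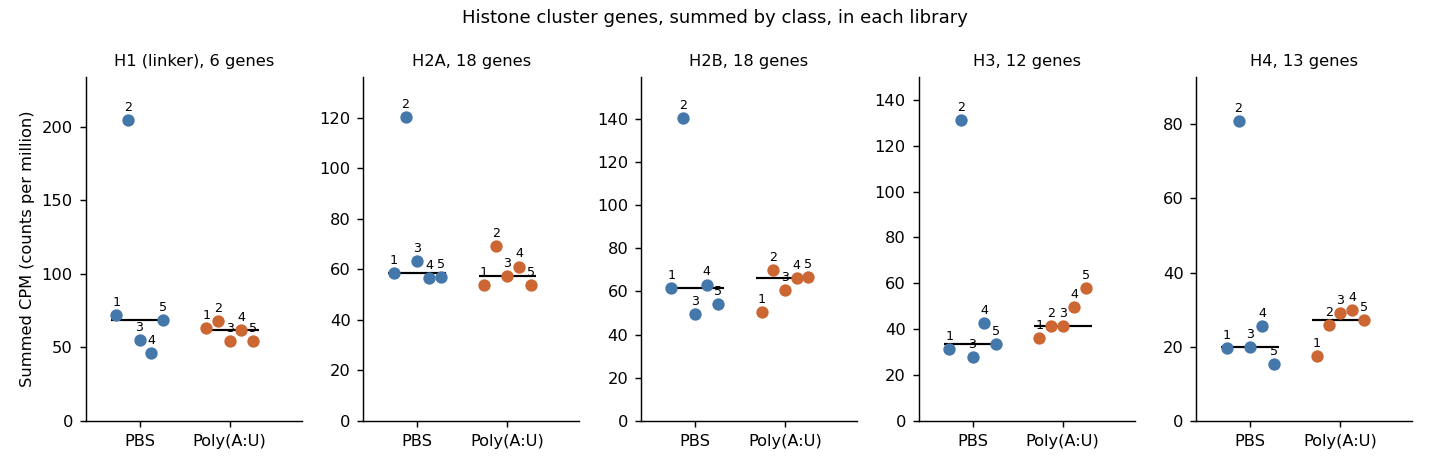
Summed reads of each histone class in CPM (vertical axes, starting at 0) for the 5 PBS and 5 Poly(A:U) libraries; each point is 1 library with its replicate number, and lines are group medians. PBS 2 lies above every other library in all 5 classes, from 81.0 CPM for H4 to 204 CPM for H1.

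In the comparison of Poly(A:U) with PBS, 60 of the 67 members passed the filter on low counts. By edgeR's quasi-likelihood test with Benjamini-Hochberg adjustment over all 13729 genes, 0 of 60 were called at an adjusted p below 0.05, as were 0.0% of all genes, and the smallest adjusted p of any member was 0.677. At an unadjusted p below 0.05 there were 2 of 60, against 7.3% of all genes. The fold change was negative for 53 of 60, against 50.6% of all genes, with a median of -0.30 on the log2 scale (all genes -0.002). By class the medians were -0.50 for H1 (5 genes), -0.30 for H2A (15), -0.28 for H2B (17), -0.28 for H3 (11) and -0.37 for H4 (12). No member had groups that did not overlap (0.947% of all genes had). DESeq2 called 0 of 60 members and 0.0947% of all genes. In bulk RNA, the share of cells in S phase and the histone RNA per cell cannot be told apart.

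In the fit of treatment alone, the sign of these values rested on PBS 2. Without it the median turned to 0.30 and 45 of 60 members had a positive fold change (49.7% of all genes), with 12 of 12 H4 and 10 of 11 H3 genes positive; class medians were 0.08 for H1, 0.08 for H2A, 0.25 for H2B, 0.32 for H3 and 0.35 for H4. Again 0 of 60 were called by edgeR (0.0% of all genes), with 6 of 60 at an unadjusted p below 0.05 (4.87% of all genes). Without PBS 2, DESeq2 called 0 of 60 members and 0.0146% of all genes, and limma's voom with quality weights 0 of 60 and 0.00728%. The 5 members whose Poly(A:U) libraries all lay above the remaining PBS libraries were Hist1h2bl, Hist1h2bh, Hist1h3e, Hist1h3a and Hist1h1a (1.13% of all genes did so); they were picked out after their values were seen. Leaving out any other single library kept the median negative, between -0.45 and -0.26. With PBS 4 left out as well as PBS 2, the median was 0.42 and 52 of 60 were positive; PBS 4 was the PBS library with the highest S phase and T cell marker sums.

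The names of the libraries also tie some of them together. Those of PBS 1, 2 and 3 share their start, those of PBS 4 and Poly(A:U) 5 share another part, as do those of PBS 5 and Poly(A:U) 1, and those of Poly(A:U) 3 and 4; what these parts stand for is not stated in the sources used here. With the shared parts as terms in the edgeR fit, in which the treatment difference rests on the pairs PBS 4 with Poly(A:U) 5 and PBS 5 with Poly(A:U) 1, the median of the members was 0.03 with 32 of 60 positive, and 0 were called. Hist1h1e moved from -0.97 to 0.24 in that fit. Without PBS 1, 2 and 3 the median was 0.24 and 41 of 60 were positive, again with 0 called. The shared start of PBS 1, 2 and 3 occurs in the PBS group only, so what it stands for and the treatment cannot be told apart in these 3 libraries.

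The half-width of the 95% interval of a member's log2 fold change was 0.94 at the median with all libraries and 0.68 without PBS 2, against 0.30 over all genes tested. These intervals take no account of the adjustment over all genes tested. Differences between treatments smaller than these widths were not detectable for a typical member, and larger ones could also go uncalled. Without PBS 2, Hist1h2bl had a log2 fold change of 1.37 (95% interval 0.66 to 2.08), yet its adjusted p by edgeR was 0.823.

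**Figure D2:**
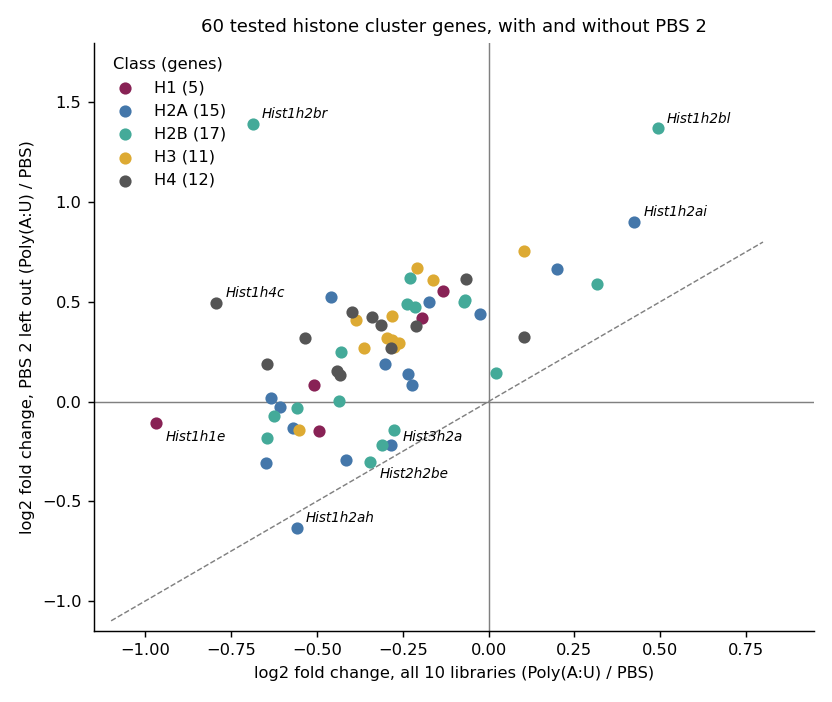
Log2 fold change (Poly(A:U) over PBS) of the 60 tested members with all 10 libraries (horizontal) and with PBS 2 left out (vertical); each point is 1 gene, coloured by class, and the dashed line marks equal values. 53 points lie left of 0 on the horizontal axis and 45 lie above 0 on the vertical axis.

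Among the H1 genes, whose products bind linker DNA and compact chromatin, Hist1h1c had the highest level per length, at a mean of 30.6 TPM (transcripts per 1000000, which corrects for length) over the 10 libraries, followed by Hist1h1e (16.1 TPM) and Hist1h1b (11.1 TPM). TPM depends on the annotated length, which was 743 bases for Hist1h1b and 7425 bases for Hist1h1d. Hist1h1e had 19.1, 81.7, 17.8, 14.8 and 12.5 CPM in PBS 1 to 5 and 14.4, 10.4, 14.3, 17.8 and 19.3 CPM in Poly(A:U) 1 to 5. PBS 2 was 5.53 times the median of the others, whose groups overlapped; the log2 fold change was -0.97 (SE 0.53, adjusted p = 0.695), and -0.11 (SE 0.18, adjusted p = 0.921) without PBS 2. Hist1h1c had 36.9, 71.5, 27.2, 15.7 and 42.4 CPM in PBS 1 to 5 and 34.5, 35.0, 23.0, 27.7 and 18.5 CPM in Poly(A:U) 1 to 5. It was lowest in PBS 4 and Poly(A:U) 5 and 2.58 times the median of the others in PBS 2, with a log2 fold change of -0.50 (SE 0.36, adjusted p = 0.730), and -0.15 (SE 0.29, adjusted p = 0.932) without PBS 2. Hist1h1b had 3.71, 13.4, 2.56, 4.38 and 4.01 CPM in PBS 1 to 5 and 3.73, 6.96, 5.35, 3.92 and 4.84 CPM in Poly(A:U) 1 to 5, with PBS 2 again highest and a log2 fold change of -0.19 (SE 0.41, adjusted p = 0.912), and 0.42 (SE 0.25, adjusted p = 0.823) without PBS 2. The testis form Hist1h1t was at 0.17 CPM or less in every library and was not tested.

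Among the H2A genes, which with H2B form the outer dimers of the core particle, the highest mean TPM values were those of Hist2h2aa2 (44.8), Hist1h2ap (31.7) and Hist2h2aa1 (26.5). Many member transcripts are annotated without untranslated bases, and short annotated lengths raise TPM. Hist2h2aa1 and Hist2h2aa2 are near-identical copies: 100% of the 50-base stretches of Hist2h2aa2 and 89.2% of those of Hist2h2aa1 also occur in another member, so the split of reads between them is uncertain. Hist2h2aa1 had 9.84, 11.7, 7.17, 6.11 and 9.35 CPM in PBS 1 to 5 and 6.73, 5.03, 8.01, 7.66 and 6.22 CPM in Poly(A:U) 1 to 5. PBS 2 and PBS 1 were highest and the groups overlapped; its log2 fold change was -0.42 (SE 0.19, adjusted p = 0.681), and -0.29 (SE 0.19, adjusted p = 0.823) without PBS 2. Hist2h2aa2 had 8.37, 21.6, 15.1, 11.1 and 4.89 CPM in PBS 1 to 5 and 10.2, 15.01, 8.10, 11.2 and 8.36 CPM in Poly(A:U) 1 to 5; PBS 2 was highest and PBS 5 lowest, and the log2 fold change was -0.22 (SE 0.35, adjusted p = 0.876), and 0.08 (SE 0.31, adjusted p = 0.969) without PBS 2. Hist1h2ap had 4.81, 14.9, 3.84, 6.16 and 4.88 CPM in PBS 1 to 5 and 4.97, 6.03, 5.79, 4.93 and 6.87 CPM in Poly(A:U) 1 to 5, with 9 libraries between 3.84 and 6.87 CPM and PBS 2 at 3.00 times their median; its log2 fold change was -0.30 (SE 0.33, adjusted p = 0.807), and 0.19 (SE 0.19, adjusted p = 0.861) without PBS 2. Hist1h2ai had 1.53 CPM or less in every library, with a log2 fold change of 0.42 (SE 0.59, adjusted p = 0.857), and 0.90 (SE 0.60, adjusted p = 0.823) without PBS 2.

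Hist3h2a is the H2A gene of the small Hist3 locus. It had 24.8, 27.5, 25.2, 16.7 and 23.0 CPM in PBS 1 to 5 and 20.6, 23.3, 19.5, 19.3 and 14.7 CPM in Poly(A:U) 1 to 5. PBS 2 was 1.34 times the median of the others, and PBS 4 and Poly(A:U) 5 were lowest. The log2 fold change was -0.28 (SE 0.15, adjusted p = 0.695), and -0.22 (SE 0.16, adjusted p = 0.823) without PBS 2. In limma's voom fit with library quality weights, PBS 4 had the lowest weight (0.222) and PBS 2 (2.04) the highest after Poly(A:U) 3 (3.58). That fit called 2 of 60 members and 6.34% of all genes. Hist3h2a was one of them (log2 fold change -0.38, adjusted p = 0.0438); leaving out PBS 2 in that fit ended the call (adjusted p = 0.201).

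Of the H2B genes, Hist3h2ba (21.02), Hist1h2bg (16.3) and Hist1h2bk (15.5) had the highest mean TPM. Hist3h2ba, the neighbour of Hist3h2a, had 10.1, 10.2, 6.87, 6.54 and 7.35 CPM in PBS 1 to 5 and 6.24, 7.64, 6.81, 8.38 and 4.59 CPM in Poly(A:U) 1 to 5. Its groups overlapped, PBS 2 was 1.49 times the median of the others, and the log2 fold change was -0.31 (SE 0.20, adjusted p = 0.701), and -0.22 (SE 0.21, adjusted p = 0.848) without PBS 2. Hist1h2bg had 4.95, 16.1, 1.92, 3.70 and 4.53 CPM in PBS 1 to 5 and 3.55, 5.65, 4.90, 6.01 and 6.86 CPM in Poly(A:U) 1 to 5; here PBS 2 was 3.29 times the median and PBS 3 was lowest. Its log2 fold change was -0.24 (SE 0.47, adjusted p = 0.909), and 0.49 (SE 0.28, adjusted p = 0.823) without PBS 2. Hist1h2bk had 3.39, 5.75, 1.99, 2.59 and 3.35 CPM in PBS 1 to 5 and 5.07, 6.08, 2.80, 4.22 and 3.33 CPM in Poly(A:U) 1 to 5, with Poly(A:U) 2 highest and a log2 fold change of 0.32 (SE 0.31, adjusted p = 0.792), and 0.59 (SE 0.29, adjusted p = 0.823) without PBS 2.

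Hist2h2be, whose annotated transcript runs to a poly(A) signal, had the smallest unadjusted p of all members. It had 16.5, 14.96, 14.3, 8.997 and 12.8 CPM in PBS 1 to 5 and 10.5, 10.5, 10.6, 11.9 and 10.6 CPM in Poly(A:U) 1 to 5. The Poly(A:U) libraries lay within a narrow range, all below PBS 1, 2, 3 and 5 and all above PBS 4. The log2 fold change was -0.34 (SE 0.15, adjusted p = 0.677), and -0.30 (SE 0.16, adjusted p = 0.823) without PBS 2. It was the other member called by the voom fit with quality weights (log2 fold change -0.45, adjusted p = 0.0332, and 0.162 without PBS 2). Hist1h2bl had the largest positive value: it had 0.92, 5.00, 0.76, 1.09 and 1.06 CPM in PBS 1 to 5 and 1.88, 2.98, 1.40, 3.47 and 2.80 CPM in Poly(A:U) 1 to 5. Apart from PBS 2, every PBS library was below every Poly(A:U) library, and the log2 fold change was 0.49 (SE 0.51, adjusted p = 0.802), and 1.37 (SE 0.32, adjusted p = 0.823) without PBS 2. Its 50-base stretches are 82.8% shared with other members, so reads of near-identical H2B genes cannot be told apart from its own.

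Hist1h2br and Hist1h2bq are another such pair. Hist1h2br was at 0 CPM in PBS 3, PBS 4, Poly(A:U) 1 and Poly(A:U) 5 and at 8.38 CPM in PBS 2, while its near-copy Hist1h2bq had 3.53, 3.82, 1.63 and 6.23 CPM in those same 4 libraries. Of their 50-base stretches, 88.7% and 97.3% also occur in other members. In all, 30 of the 67 members shared over 50% of theirs, and the values of those single genes are uncertain.

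Among the H3 genes, which with H4 form the central tetramer, the highest mean TPM values were those of Hist2h3b (33.9), Hist1h3i (31.1) and Hist1h3h (25.6). Hist2h3b had 5.43, 18.8, 4.52, 4.86 and 5.24 CPM in PBS 1 to 5 and 4.50, 5.52, 5.46, 6.89 and 8.43 CPM in Poly(A:U) 1 to 5. PBS 2 was 3.46 times the median and the other 4 PBS libraries lay within 4.52 to 5.43 CPM; the log2 fold change was -0.36 (SE 0.39, adjusted p = 0.805), and 0.27 (SE 0.19, adjusted p = 0.823) without PBS 2. Hist1h3i had 0.75, 15.8, 3.82, 3.83 and 3.69 CPM in PBS 1 to 5 and 3.31, 5.58, 2.43, 7.15 and 6.12 CPM in Poly(A:U) 1 to 5, and it was lowest in PBS 1. Its log2 fold change was -0.21 (SE 0.64, adjusted p = 0.943), and 0.67 (SE 0.46, adjusted p = 0.823) without PBS 2. Hist1h3h had 4.37, 10.4, 1.21, 3.58 and 3.34 CPM in PBS 1 to 5 and 2.22, 3.92, 6.21, 1.56 and 5.43 CPM in Poly(A:U) 1 to 5, with the groups overlapping and a log2 fold change of -0.27 (SE 0.51, adjusted p = 0.900), and 0.27 (SE 0.44, adjusted p = 0.919) without PBS 2. All 11 tested H3 genes were more than 2-fold above the median of the others in PBS 2, within the range 2.85 to 4.14.

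Of the H4 genes, Hist1h4n (19.6), Hist1h4f (13.6) and Hist1h4k (11.2) had the highest mean TPM. Hist1h4n had 3.03, 13.0, 1.89, 2.86 and 2.52 CPM in PBS 1 to 5 and 1.51, 2.91, 4.46, 3.98 and 3.56 CPM in Poly(A:U) 1 to 5. PBS 2 was 4.47 times the median of the others, and the log2 fold change was -0.54 (SE 0.52, adjusted p = 0.790), and 0.32 (SE 0.31, adjusted p = 0.848) without PBS 2. Hist1h4f had 1.88, 7.52, 1.67, 1.73 and 0.68 CPM in PBS 1 to 5 and 1.17, 2.02, 1.67, 2.96 and 2.62 CPM in Poly(A:U) 1 to 5, with PBS 2 highest, PBS 5 lowest and a log2 fold change of -0.40 (SE 0.53, adjusted p = 0.848), and 0.45 (SE 0.36, adjusted p = 0.826) without PBS 2. Hist1h4k had 0.71, 3.30, 1.19, 0.71 and 0.66 CPM in PBS 1 to 5 and 0.66, 0.95, 1.18, 0.95 and 2.63 CPM in Poly(A:U) 1 to 5; PBS 2 was highest and Poly(A:U) 5 next, and the log2 fold change was -0.07 (SE 0.52, adjusted p = 0.983), and 0.62 (SE 0.43, adjusted p = 0.823) without PBS 2. Hist4h4, the lone gene of the Hist4 locus, had 1.12, 4.37, 0.80, 2.31 and 0.66 CPM in PBS 1 to 5 and 0.89, 2.13, 1.70, 1.79 and 1.60 CPM in Poly(A:U) 1 to 5, a mean of 0.88 TPM and a log2 fold change of -0.21 (SE 0.49, adjusted p = 0.923), and 0.38 (SE 0.42, adjusted p = 0.876) without PBS 2.

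The other 7 members did not pass the filter on low counts. These were Hist1h1t, Hist1h2aa, Hist1h2ao, Hist2h2ab, Hist1h2ba, Hist2h3c1 and Hist1h4m. Hist1h4m was listed at 0 in all 10 libraries, and the highest value of the others was 1.81 CPM, for Hist2h3c1 in Poly(A:U) 3. Hist1h4m has the same stem-loop and bases before it as Hist1h4n, Hist1h2ao as Hist1h2ap, and Hist2h3c1 as Hist2h3c2. How reads were split within these pairs was not tested.

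The excess in PBS 2 was compared gene by gene, as a description, since it was noticed in these values. PBS 2 was the highest of the 10 libraries for 55 of the 60 tested members (91.7%), against 6.50% of all genes tested. Its CPM was more than 2 times the median of the other 9 for 51 of 60 members (85.0%) and for 2.07% of all genes tested, and the median ratio was 3.27 for the members and 0.98 for all genes. By class the median ratio was 3.32 for H1, 2.43 for H2A, 3.29 for H2B, 3.46 for H3 and 3.55 for H4. The 9 members at 2-fold or less were Hist1h2ah (0.75), Hist3h2a (1.34), Hist2h2be (1.41), Hist3h2ba (1.49), Hist1h4i (1.58), Hist2h2aa1 (1.63), Hist1h2bk (1.72), Hist1h2bc (1.78) and Hist1h2bq (1.88). Of these 9, 5 have a poly(A) signal near an annotated transcript end, as have 10 of the other 51. Hist1h2bq is among these 5, but its ratio is uncertain. In PBS 2 its single-exon form was assigned 0 reads, and that of its near-copy Hist1h2br 147. The ratio of Hist1h2br was 30.3. The median ratio was 2.74 over the 15 tested members with a poly(A) signal near an annotated end and 3.34 over the 45 without. Some of the 45 are annotated far past the loop, such as Hist1h1e (1153 bases) and Hist1h2bh (1214 bases). That split therefore does not separate mRNAs with and without a poly(A) tail. By stem-loop, the median ratio was 3.27 over the 42 with the annotated stem-loop and 3.23 over the 18 without. Several of those without, such as Hist1h1b, Hist1h2bl and Hist1h3i, are annotated with 0 bases after the stop codon. No loop can be found in such transcripts, so these groups do not separate mRNAs that lack it from short annotations.

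**Figure D3:**
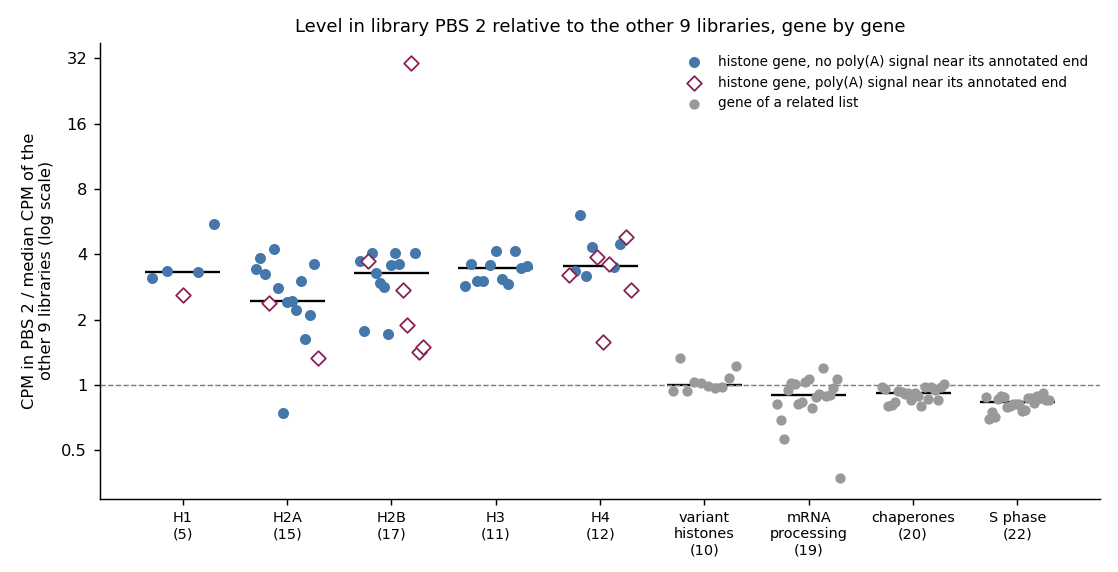
CPM in PBS 2 divided by the median CPM of the other 9 libraries (log scale) for each tested member by class and for each gene of 4 related lists; lines are medians and diamonds are members with a poly(A) signal near an annotated end. Class medians lie between 2.43 and 3.55, and the medians of the 4 related lists lie between 0.83 and 1.00.

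The genes that go with histone synthesis did not share the excess. The replication-independent histone genes lie outside the clusters, and most are transcribed through the cell cycle and give polyadenylated mRNA; among the listed ones, H2afx also gives a stem-loop mRNA and Cenpa is transcribed mainly in G2. For the 10 of them tested the median ratio of PBS 2 to the others was 1.00 (range 0.93 to 1.32). It was 0.89 for 19 genes of histone transcription and mRNA processing, 0.91 for 20 histone chaperone and import genes, and 0.83 for 22 S phase genes, none of which was above 2. The S phase genes summed to 3175 CPM in PBS 2, the lowest of the 10 libraries but close to PBS 3 (3190 CPM). PBS 4 was highest, at 4927 CPM.

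Small noncoding RNAs made without a poly(A) tail were high in PBS 2 as the histones were; they were picked after the histone values were seen. Rn7sk, the 7SK RNA that restrains transcription elongation, was at 211 CPM in PBS 2 and between 19.6 and 79.0 CPM in the other 9. Rpph1, the RNA of ribonuclease P, was at 33.5 CPM in PBS 2 and between 2.58 and 8.03 CPM elsewhere. Small nuclear RNA genes summed to 92.0 CPM in PBS 2 and to between 5.22 and 18.6 CPM elsewhere. Mitochondrial ribosomal RNAs, which carry only short oligo(A) tails, summed to 3194 CPM in PBS 2 against 1078 to 1973 CPM. Without PBS 2, Rn7sk had a mean of 57.7 ± 15.5 CPM (SD, n = 5) against 31.4 ± 11.2 CPM (SD, n = 4) with PBS, and Rpph1 5.29 ± 2.19 against 3.00 ± 0.36 CPM, with overlapping groups for both. How far such RNAs were captured in each library, and the part of that in the histone values, was not tested.

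The neutrophil markers also moved with PBS 2. The 14 listed genes, among them the granule gene Camp and the myeloperoxidase gene Mpo, summed to 1119 CPM in PBS 2, 950 CPM in PBS 3 and 747 CPM in PBS 1, and to between 31.99 and 279 CPM in the other 7 libraries. By group they ranged from 52.3 to 1119 CPM with PBS and from 31.99 to 279 CPM with Poly(A:U), and all 9 that were tested were highest in PBS 2. PBS 3 and PBS 1 had summed histone reads of 215 and 243 CPM, against 677 CPM in PBS 2 and 221 to 274 CPM with Poly(A:U). The part of neutrophils in the histone values was not tested.

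**Figure D4:**
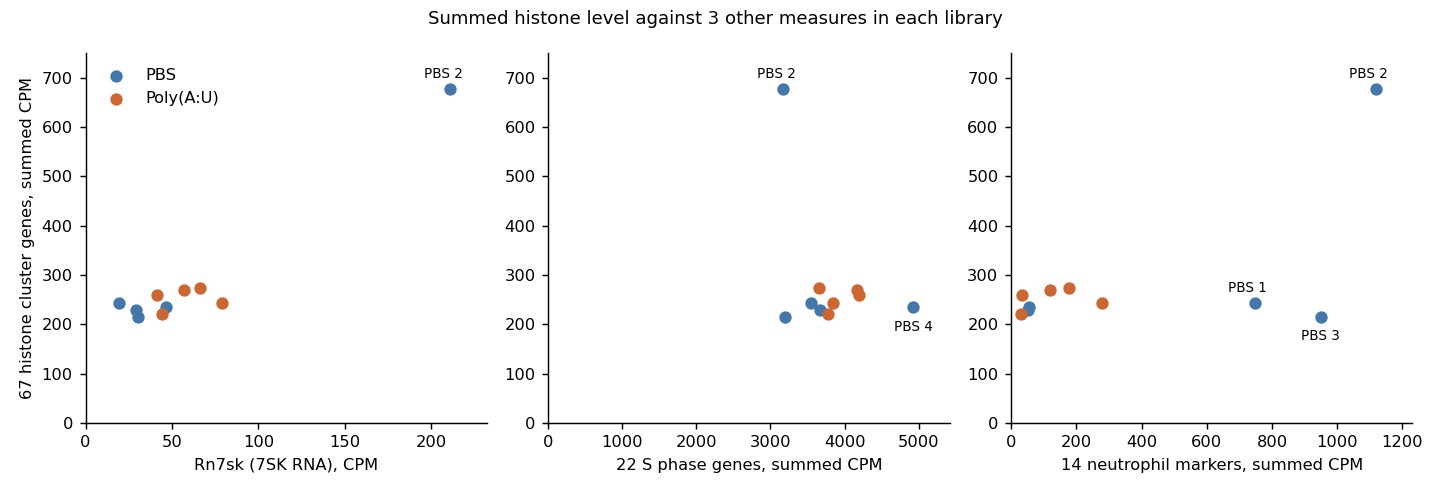
Summed CPM of the 67 members in each library (vertical) against Rn7sk, the summed S phase genes and the summed neutrophil markers (horizontal, CPM); each point is 1 library. PBS 2, at 677 CPM of histone reads, is also highest for Rn7sk (211 CPM) and the neutrophil markers (1119 CPM). It is lowest for the S phase genes (3175 CPM), close to PBS 3 (3190 CPM). PBS 1 and PBS 3 combine high neutrophil markers with 243 and 215 CPM of histone reads.

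The related genes were then compared between treatments by the same edgeR fit. No gene of the 4 lists was called. Of the 19 processing genes, 12 had positive and 7 negative fold changes, with a median of 0.03 (12 positive and a median of 0.04 without PBS 2). Slbp, which binds the stem-loop, had 140, 138, 118, 153 and 150 CPM in PBS 1 to 5 and 155, 167, 168, 182 and 157 CPM in Poly(A:U) 1 to 5. In these CPM, scaled by library totals, every Poly(A:U) library lay above every PBS library, as in 0.947% of all genes in either direction. With the TMM scaling factors of the fit (0.982 for PBS 4, 1.047 for Poly(A:U) 5), PBS 4 lay above Poly(A:U) 5. The log2 fold change of Slbp was 0.22 (SE 0.09, adjusted p = 0.677), and 0.21 without PBS 2. The unadjusted p was 0.0284. Npat, the transcription coactivator of the histone locus body, had 42.6, 31.2, 37.5, 30.6 and 36.9 CPM in PBS 1 to 5 and 31.0, 22.2, 31.2, 34.5 and 47.1 CPM in Poly(A:U) 1 to 5 and a log2 fold change of -0.14 (SE 0.15, adjusted p = 0.807), and -0.18 without PBS 2. Ccne1, the cyclin that drives entry into S phase, had a log2 fold change of 0.33 (SE 0.15, adjusted p = 0.686), and 0.28 without PBS 2.

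Of the 22 S phase genes, 18 had positive fold changes with a median of 0.07, and 12 were positive without PBS 2, with a median of 0.005. Pcna, the sliding clamp of DNA polymerases, had 419, 428, 402, 504 and 458 CPM in PBS 1 to 5 and 493, 499, 522, 572 and 489 CPM in Poly(A:U) 1 to 5, and Rfc3, a subunit of the clamp loader, had a log2 fold change of 0.22 (SE 0.09, adjusted p = 0.677), and 0.22 without PBS 2. The log2 fold change of Pcna was 0.19 (SE 0.09, adjusted p = 0.683), and 0.18 without PBS 2. Of the 20 chaperone and import genes 13 were positive (median 0.04), and 10 were without PBS 2 (median -0.003). Chaf1b, a subunit of the assembly factor that deposits H3 and H4 behind the replication fork, had a log2 fold change of 0.15 (SE 0.10, adjusted p = 0.701), and 0.12 without PBS 2. Daxx, a chaperone of variant H3, had -0.09 (SE 0.07, adjusted p = 0.730), and -0.11 without PBS 2. Of the 10 replication-independent histone genes 2 were positive (median -0.08), with and without PBS 2. H2afz, the variant H2A found at promoters, had a log2 fold change of 0.11 (SE 0.14, adjusted p = 0.836) at a mean of 630 TPM, and 0.11 without PBS 2. The centromeric H3 variant Cenpa had 0.19 (SE 0.10, adjusted p = 0.695), and 0.22 without PBS 2. The linker variant H1fx had -1.44 (SE 0.71, adjusted p = 0.695), and -1.65 without PBS 2; its PBS mean was 36.5 ± 46.2 CPM (SD, n = 5) and rested on PBS 4 (119 CPM, the other PBS libraries 13.5 to 19.3 CPM).

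Of each marker list, the pair of genes with the smallest unadjusted p is given from the same fit, in which none was called. In the B cell precursor list these were Rag2, of the V(D)J recombinase, with a log2 fold change of 0.28 (SE 0.09, adjusted p = 0.677), and 0.22 without PBS 2, and Il7r, the interleukin-7 receptor, with -0.23 (SE 0.10, adjusted p = 0.677), and -0.21 without PBS 2. The neutrophil genes Mpo and Camp had -3.65 (SE 1.00, adjusted p = 0.677), and -3.32 without PBS 2, and -2.33 (SE 1.03, adjusted p = 0.686), and -1.92 without PBS 2, respectively. The macrophage genes were Mpeg1, a pore-forming protein of phagocytes, with -1.52 (SE 0.34, adjusted p = 0.677), and -1.52 without PBS 2, and the lysozyme gene Lyz2 with -1.68 (SE 0.54, adjusted p = 0.677), and -1.42 without PBS 2. The erythroid genes were the spectrin gene Sptb with 1.24 (SE 0.77, adjusted p = 0.701), and 1.03 without PBS 2, and Rhag, a red cell membrane protein, with 1.27 (SE 0.62, adjusted p = 0.695), and 1.05 without PBS 2. The T cell genes were Cd4 with -2.10 (SE 0.79, adjusted p = 0.677), and -2.31 without PBS 2, and the T cell receptor gene Trac with -2.03 (SE 1.07, adjusted p = 0.695), and -2.31 without PBS 2. The part of such cells in the histone values was not tested.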

How the data were processed

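Bulk RNA sequencing of 10 libraries was analysed, 5 from PBS and 5 from Poly(A:U) pups. The authors deposited, per transcript, estimated counts of reads, TPM values and effective lengths, per the file headers, and a table of normalized CPM signal per gene. DRAGEN, edgeR 3.38.4 and the build mm10 are named in the submitters' processing notes; counting settings, strand and RNA selection were not given in the sources used here. Estimated counts were summed per gene with GENCODE M21 (538 of 142333 transcripts, holding at most 0.0695% of reads, had no gene), rounded, and scaled to CPM by library totals.

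Groups came from the sample titles. All 13729 genes that passed edgeR's filterByExpr (minimum count 10) were fitted with TMM factors and edgeR 4.0.16 (R 4.3.3), quasi-likelihood test, treatment only, Benjamini-Hochberg adjustment over all genes, threshold 0.05. The main edgeR steps were also run on simulated counts. These held no outlier library such as PBS 2, so that run does not bear on its effect. DESeq2 1.42.0, limma 3.58.1 (voom with quality weights; deposited CPM and TPM as log2(value + 0.5)), other factors and filters, a replicate block, and fits without libraries were alternatives. Fits without PBS 2 and PBS 4 together, and DESeq2 and voom without PBS 2, were chosen after seeing the data. No pair of libraries of a group agreed within sampling noise. Same-numbered libraries of the groups correlated between -0.183 and 0.140 in their deviations, so the numbers were not treated as pairs.

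Members named with values were any called, the 3 of highest mean TPM in each class, the 3 of smallest unadjusted p in each direction, any whose groups did not overlap, and those of the Hist3 and Hist4 loci; of each list, the 2 of smallest p plus Slbp, Npat, Pcna and H2afz. The members and gene lists were chosen with earlier results of these data known. Sequences were read from GENCODE M21 transcripts and the RefSeq promoter table; coordinates are 1-based.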

Additional observations from a re-analysis of the deposited data

Results flagged for a closer look

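Within each group of 5 libraries, a library was marked where its gap to the nearest other library took over 0.71 of the group's range (Dixon's 95% criterion), which chance does in about 1 of 20 groups. Of 56 groups examined (the named members, the class sums and the linker share, in both treatments), 19 were marked, and 17 of the marks were PBS 2. Its summed reads were 204 CPM for H1 (72.1 in the next highest PBS library), 120 CPM for H2A (next 63.4), 140 CPM for H2B (next 63.2), 131 CPM for H3 (next 42.6), 81.0 CPM for H4 (next 25.6), 473 CPM for the core classes (next 188) and 677 CPM for all members together (next 243). The named members marked in PBS 2 were Hist1h2bl (5.00 CPM, next 1.09), Hist1h4k (3.30 CPM, next 1.19), Hist1h1b (13.4 CPM, next 4.38), Hist1h3i (15.8 CPM, next 3.83), Hist1h4n (13.0 CPM, next 3.03), Hist1h2ap (14.9 CPM, next 6.16), Hist1h4f (7.52 CPM, next 1.88), Hist1h2bg (16.1 CPM, next 4.95), Hist1h1e (81.7 CPM, next 19.1) and Hist2h3b (18.8 CPM, next 5.43). The other marks were Hist1h4k in Poly(A:U) 5 (2.63 CPM, next 1.18) and Hist2h2be in Poly(A:U) 4 (11.9 CPM, next 10.6). The class sums hold the same genes as the single members, so these marks are not independent of each other.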

How the results depend on the processing

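With all 10 libraries kept, other scaling factors, filters and tools gave medians from -0.35 to -0.27 for the members. The filter of 10 CPM in 5 libraries dropped most of the named members, so its median rests on fewer than 60 genes. The replicate block, the authors' deposited CPM and TPM gave smaller values of -0.09, -0.08 and -0.07, and terms for name parts that libraries share gave 0.03 (core genes 0.03, linker genes -0.03). All scaling and filter alternatives left 0 members called. Leaving out 1 library in turn gave medians from -0.45 to 0.30 for the members, -0.44 to 0.31 for the core genes and -0.62 to 0.08 for the linker genes, positive for PBS 2 only, and 0 to 18 genes called in all, the 18 without PBS 5. Without PBS 1 to PBS 3 the medians were 0.24, 0.25 and 0.12. In fits chosen after seeing the data they were 0.42, 0.44 and 0.13 without PBS 2 and PBS 4, 0.35, 0.35 and 0.14 for voom without PBS 2, and 0.29 and 0.30 (members and core) for DESeq2 without PBS 2. Genes called in all numbered 13 for DESeq2, 870 for voom with quality weights (2 members), and without PBS 2, 2 and 1 respectively. The cause of these shifts was not tested. Of the 60 tested members, 53 had at least 10 reads in every library, and near-identical copies limit the values of single genes.

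With the replicate number as a block the members' median was -0.09 and 0 were called, but same-numbered libraries did not correlate over 0.1 in every pair, and only 1 of 5 numbers matched its own best.

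Single named members, none called by edgeR, changed sign in log2 fold change as follows. Under the replicate block, Hist1h4k was 0.063, Hist1h1b 0.0090, Hist1h3i 0.25, Hist1h2bg 0.10 and Hist4h4 0.059. With the authors' deposited CPM, the same 5 were 0.023, 0.0082, 0.20, 0.069 and 0.019; with TPM, 0.085, 0.034, 0.30, 0.11 and 0.0055, and Hist1h4f 0.0092. Hist4h4 was 0.011 with voom. Without PBS 1 to PBS 3, values were Hist1h3h 0.12, Hist1h4k 0.82, Hist1h1b 0.22, Hist1h3i 0.35, Hist1h4n 0.25, Hist1h2ap 0.014, Hist1h4f 0.74, Hist1h2bg 0.36, Hist1h1e 0.12, Hist2h2aa2 0.38, Hist2h3b 0.25 and Hist4h4 0.092. With terms for name parts that libraries share, Hist1h2ai was -0.22, Hist1h4k 0.96, Hist1h3i 0.21, Hist1h2ap 0.033, Hist1h4f 0.59, Hist1h2bg 0.23, Hist1h1e 0.24, Hist2h2aa2 0.25 and Hist2h3b 0.25. For Hist1h3h, Hist1h4k, Hist1h1b, Hist1h3i, Hist1h4n, Hist1h2ap, Hist1h4f, Hist1h2bg, Hist2h2aa2, Hist2h3b and Hist4h4 in that order, DESeq2 without PBS 2 gave 0.26, 0.61, 0.41, 0.66, 0.31, 0.18, 0.44, 0.48, 0.069, 0.26 and 0.37. Leaving out PBS 2 and PBS 4 gave 0.35, 0.58, 0.52, 0.82, 0.38, 0.32, 0.53, 0.49, 0.15, 0.26 and 0.90. Voom without PBS 2 gave 0.55, 0.31, 0.51, 0.68, 0.52, 0.27, 0.35, 0.55, 0.0024, 0.17 and 0.75. Leaving out 1 library in turn gave ranges of -0.52 to 0.27, -0.50 to 0.62, -0.38 to 0.42, -0.49 to 0.67, -0.74 to 0.32, -0.46 to 0.19, -0.65 to 0.45, -0.47 to 0.49, -0.43 to 0.082, -0.50 to 0.27 and -0.44 to 0.38, with every positive value from leaving out PBS 2 except for Hist1h4k, which was also 0.01, 0.02 and 0.09 without Poly(A:U) 2, 4 and 1.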
